A study of Homo sapiens with 16 samples.

Results

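The 37 genes of the human mitochondrial genome were followed through 16 RNA-seq libraries of MDA-MB-231 cells, a triple-negative breast cancer line. The members were all genes that the count files place on chromosome MT, which gave 37 of 60719 gene identifiers: 13 protein-coding, 2 rRNA and 22 tRNA genes. The unedited cells (parental 231) were compared with 231:TKO cells, in which TXNIP, a regulator of glucose uptake and a relative of the arrestins, was deleted by CRISPR/Cas9 and clones were grown from single cells, so a clone's own features cannot be told apart from the loss of TXNIP. Parental 231 and 231:TKO were sequenced untreated with 2 libraries each. Both populations were also sequenced 48 hours after transfection with a non-targeting siRNA (siNT) or an siRNA against Myc (siMyc), with 3 libraries each. The untreated and the 231:TKO siRNA libraries are described as biological replicates, but no source used here says which came from separate cultures, so p-values measure the spread between these libraries, which may in part be technical.

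Mitochondrial DNA is transcribed from both strands into long RNAs that are cut mostly at the tRNAs lying between the other genes. The 13 mRNAs encode core subunits of the respiratory chain complexes I, III and IV and of the ATP synthase, and the 2 rRNAs build the mitochondrial ribosome that translates them. MT-ND6 is the one mRNA from the light strand, and it is known to lack the poly(A) tail that other mitochondrial mRNAs carry, while the rRNAs carry only short tails and mature tRNAs none. These libraries were made by poly(A) capture with a strand-marking kit, so levels of MT-ND6, the rRNAs and the tRNAs are levels of what capture retained. The copy number of the mitochondrial genome was not measured, and less RNA per mitochondrion cannot be told apart from fewer mitochondria.

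Positions are those of the count files on GRCh38, and sequences are GENCODE transcripts joined by Ensembl identifier, with the same length for 37 of 37 genes. MT-ATP8, the gene with the largest called difference between the untreated populations, lies at MT:8366-8572 on the plus strand, and its last 46 bases are also the first 46 bases of MT-ATP6 at MT:8527-9207. The pair is carried on 1 bicistronic mRNA. Both are shown because the shared bases, in capitals, are where a read fits either gene, and MT-ATP6 is given by its first 60 bases:
MT-ATP8: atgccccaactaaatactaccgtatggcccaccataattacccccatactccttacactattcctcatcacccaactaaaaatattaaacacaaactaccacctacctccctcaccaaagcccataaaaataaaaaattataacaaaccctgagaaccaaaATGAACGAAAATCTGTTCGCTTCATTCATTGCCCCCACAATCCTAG
MT-ATP6: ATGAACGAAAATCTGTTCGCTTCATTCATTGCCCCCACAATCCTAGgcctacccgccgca

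MT-ND4L at MT:10470-10766 and MT-ND4 at MT:10760-12137 form the other bicistronic mRNA and share 7 bases. The tRNAs are shown by the most abundant one, MT-TL1 (tRNA leucine 1, MT:3230-3304, 75 bases), and by MT-TF (tRNA phenylalanine, MT:577-647, 71 bases), the one tRNA that passed the test between the untreated populations. MT-TF is the first gene of the heavy-strand transcript and directly precedes MT-RNR1:
MT-TL1: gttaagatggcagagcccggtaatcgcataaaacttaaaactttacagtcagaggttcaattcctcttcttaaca
MT-TF: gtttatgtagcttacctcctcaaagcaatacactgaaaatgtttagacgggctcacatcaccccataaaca

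Library totals ran from 18953668 to 59799444 assigned reads or read pairs. Untreated cells gave single reads, while the siRNA libraries were read pairs, and those of parental 231 were counted on a later Ensembl release than the rest. Library names in the count files begin with a number that differs between untreated, 231:TKO siRNA and parental siRNA libraries. What this number marks is not stated, and it is called batch here. Any difference between 231:TKO and parental 231 under siRNA therefore cannot be told apart from batch and release. Any difference between untreated and siRNA cells cannot be told apart from batch and read layout, nor in parental 231 from release. The MT genes have the same coordinates in both releases. TXNIP stood at 293 and 295 CPM (a gene's counts over its library's total, times 1e6) in untreated parental 231 and at 12.4 and 46.0 in 231:TKO (log2 change -3.29, SE 0.65, adjusted p = 0.0587), and at 6.76 to 10.3 in the 231:TKO siRNA libraries against 288 to 445 in the parental ones. MYC fell under siMyc by 1.21 on the log2 scale in 231:TKO (SE 0.06, adjusted p = 1.69e-11) and by 0.96 in parental 231 (SE 0.09, adjusted p = 0.0297). Markers of the line were present (group mean of VIM 1877 CPM or more), while group means of ESR1 and PGR stayed at or under 0.26 CPM, those of EPCAM lay between 12.7 and 22.6 CPM and those of ERBB2 between 82.9 and 103 CPM. CDH1 was lower in 231:TKO in all 3 comparisons of the populations, with a mean of 4.87 CPM in untreated parental 231 against 0.324 CPM. Of the other cell types' markers, CD3E and DCN were at or near 0, and PTPRC had a mean of 1.52 CPM in untreated parental 231 and 0.103 CPM in 231:TKO. COL1A1 had a mean of 7.80 CPM in untreated parental 231 against 4.86 CPM in 231:TKO, and was lower in 231:TKO under both siRNAs (log2 differences -1.04 and -0.90) and higher with siMyc in 231:TKO (0.39). One library of each parental siRNA group, siNT replicate 1 and siMyc replicate 3, stood apart from its group in the same direction (r of their deviations from the group means 0.898, across genes), so results that rest on them are given with and without this pair.

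The mitochondrial transcripts differed widely in level although they derive from a few long RNAs. Per kilobase of gene, MT-CO2, a complex IV subunit, was the highest of the 15 longer genes in 4 groups, with a mean of 2760 CPM per kilobase in parental 231 and 2377 in 231:TKO, and of 5356 with siNT and 6055 with siMyc in 231:TKO. MT-RNR2, the large rRNA, was highest in the parental siRNA groups, at 6027 CPM per kilobase with siNT and 6312 with siMyc. MT-ND6 was lowest of the 15 in all 6 groups. MT-ATP8 was 13th in untreated parental 231 and 3rd in untreated 231:TKO by the same measure. MT-ND4 took a mean of 18.8% of all mitochondrial counts in untreated parental 231 and 17.9% in 231:TKO, against 8.5% to 10.0% in the siRNA groups. The make-up of the mitochondrial RNA thus differed between untreated and siRNA libraries, which differ in treatment, batch and read layout together.

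**Figure D1:**
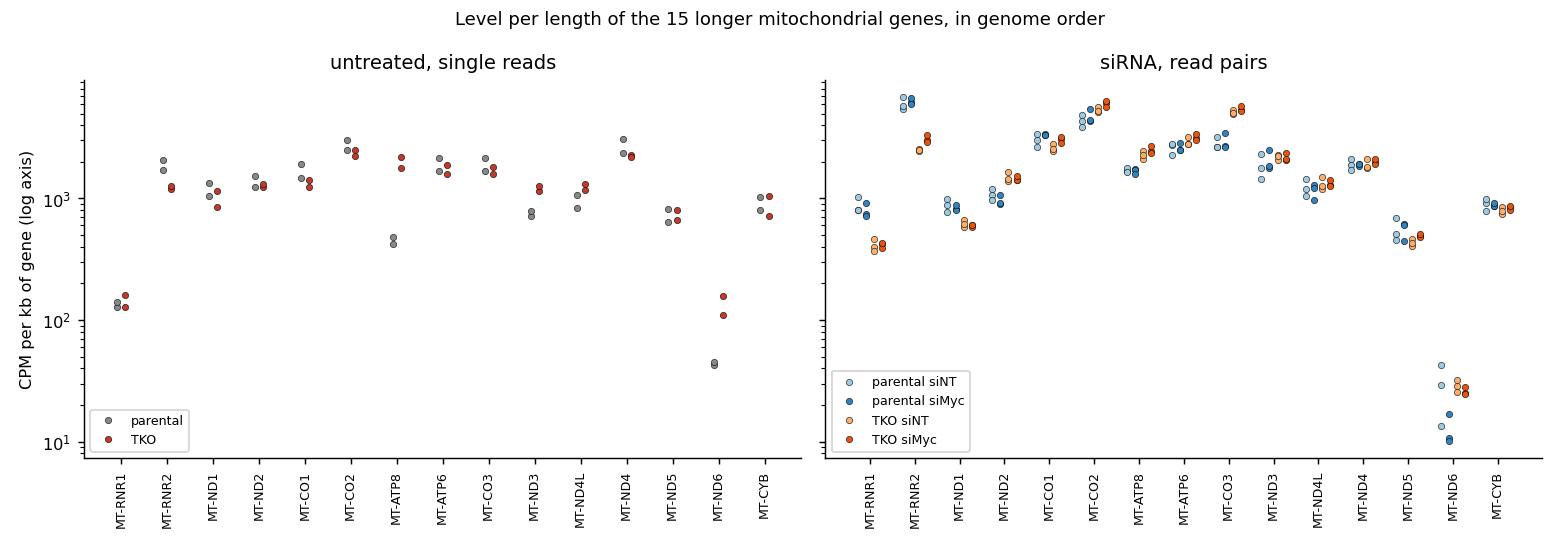
Mean level of the 15 longer mitochondrial genes in CPM per kilobase of gene, on a log axis, by group (2 untreated or 3 siRNA libraries each). MT-ND6 is the lowest in every group, and MT-RNR2 is highest in the parental siRNA groups.

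The share of each library that fell on the 37 genes did not separate the groups of any comparison. It was 1.75% and 2.21% in untreated parental 231 and 1.79% and 1.67% in 231:TKO. Under siNT it was 2.79%, 2.50% and 2.56% in 231:TKO and 3.20%, 3.04% and 2.74% in parental 231. Under siMyc it was 2.87%, 2.75% and 3.06% in 231:TKO and 3.02%, 2.98% and 3.28% in parental 231. The lowest library of 1 group lay within the range of the other in each of the 5 comparisons, and exact two-sided permutation tests gave p = 0.667 for the untreated populations (2 against 2, where the smallest p is 0.333), p = 0.2 for siMyc in 231:TKO and p = 0.6 in parental 231, and p = 0.2 and p = 0.3 for 231:TKO against parental 231 under siNT and siMyc (3 against 3, smallest p 0.1). Adjusted over the 5 comparisons these were 0.5 to 0.667. Counting intervals on single shares were narrow, at 1.74% to 1.76% (exact binomial, 95%) for the first parental library, and cover counting error only.

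Of the parts of this share, the 13 protein-coding genes overlapped between groups except under siMyc, where they held 2.36%, 2.26% and 2.50% in 231:TKO and 1.98%, 1.97% and 2.15% in parental 231 (exact permutation p = 0.1, adjusted 0.333). The 2 rRNAs separated more comparisons. They held 0.278% and 0.334% of the counts in untreated parental 231 and 0.202% and 0.210% in 231:TKO. They held 0.439%, 0.430% and 0.426% in 231:TKO with siNT and 0.513%, 0.493% and 0.557% with siMyc. In parental 231 they held 1.17%, 0.928% and 0.977% with siNT and 1.04%, 1.01% and 1.13% with siMyc. The groups did not overlap in 4 of the 5 comparisons, siMyc in parental 231 being the exception, and each p was the smallest its exact permutation test could give (0.333 untreated, 0.1 in the other 3, 0.167 adjusted for those 3). The mean rRNA share in 231:TKO was 0.672 times that of parental 231 when untreated, 0.422 times under siNT and 0.491 times under siMyc.

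**Figure D2:**
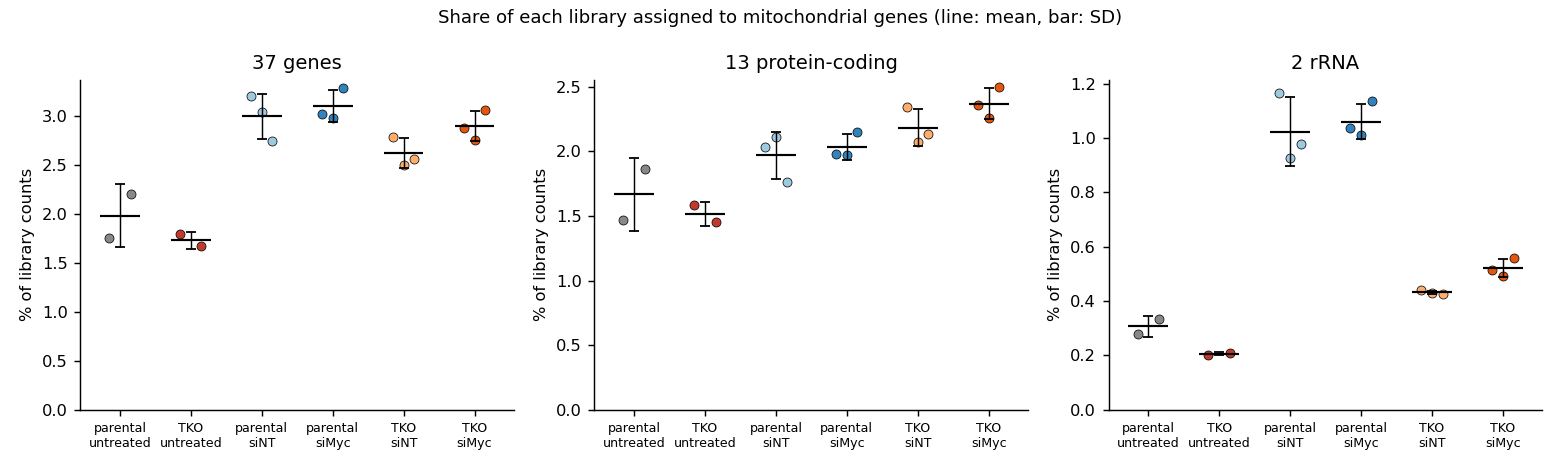
Percent of each library's counts on all 37 mitochondrial genes, on the 13 protein-coding genes and on the 2 rRNA genes, 1 point per library. The groups overlap for all 37 genes, while the rRNA share is 0.928% or more in every parental siRNA library and at most 0.557% in every 231:TKO siRNA library.

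The untreated comparison asks what TXNIP deletion changes. In 231:TKO, 3 complex I or ATP synthase mRNAs (MT-ATP8, MT-ND6 and MT-ND3) and 1 tRNA (MT-TF) rose and MT-RNR2 fell, so 5 of the 29 members tested were called, where 9.61% of all genes tested were called (5.43% higher and 4.18% lower). The median log2 change of the 13 protein-coding genes was -0.07 against 0.00 for all genes tested.

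MT-ATP8, a small subunit of the ATP synthase, measured 86.8 and 99.6 CPM in parental 231 and 457 and 372 CPM in 231:TKO. The groups were far apart, with a log2 change of 2.19 (SE 0.13, adjusted p = 0.00488). MT-ATP6, encoded on the same mRNA, measured 1137 and 1462 CPM in parental 231 and 1282 and 1074 CPM in 231:TKO. These values overlapped (log2 change -0.10, SE 0.16, adjusted p = 0.748). MT-ATP8 therefore took 7.10% and 6.38% of the counts of the pair in parental 231 and 26.3% and 25.7% in 231:TKO. Under siRNA the same share was 18.7% to 19.6% in 231:TKO and 14.5% to 18.02% in parental 231, between the 2 untreated values. With the pair counted as 1 gene, the log2 change was 0.23 (adjusted p = 0.427). Of the 50-base stretches of MT-ATP8, 8.23% had an exact copy in the nuclear genome, against 48.3% for MT-ATP6, and the part of such copies and of the shared bases in the split of reads was not tested.

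MT-ND6, the light-strand subunit of complex I (MT:14149-14673, minus strand), measured 22.3 and 23.6 CPM in parental 231 and 83.1 and 58.2 CPM in 231:TKO. The log2 change was 1.66 (SE 0.19, adjusted p = 0.0164). MT-ND5, which lies on the opposite strand beside it, measured 1165 and 1479 CPM in parental 231 and 1468 and 1213 CPM in 231:TKO and overlapped (log2 change 0.06, adjusted p = 0.855). MT-ND3, a complex I subunit (MT:10059-10404), measured 249 and 272 CPM in parental 231 and 402 and 435 CPM in 231:TKO, a log2 change of 0.73 (SE 0.08, adjusted p = 0.011). MT-ND4L, the next mRNA along the plus strand, measured 248 and 316 CPM in parental 231 and 389 and 350 CPM in 231:TKO, which did not overlap but did not pass the test (log2 change 0.43, SE 0.14, adjusted p = 0.131).

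MT-RNR2 (MT:1671-3229) measured 2661 and 3210 CPM in parental 231 and 1868 and 1973 CPM in 231:TKO, a log2 change of -0.57 (SE 0.10, adjusted p = 0.0349). The small rRNA MT-RNR1 (MT:648-1601) measured 122 and 135 CPM in parental 231 and 152 and 123 CPM in 231:TKO, and overlapped (log2 change 0.14, adjusted p = 0.554). MT-TF had only 6 and 10 counts in parental 231 and 63 and 42 in 231:TKO (0.317 and 0.519 against 2.11 and 1.46 CPM), with a log2 change of 2.12 (SE 0.40, adjusted p = 0.0379). Among nuclear RNAs without poly(A) tails, 1 of 9 tested rose (the histone gene H4C3, log2 change 2.05, adjusted p = 0.0464), the median was 0.96, and their summed level was 15.6 to 17.7 CPM in parental 231 and 20.5 to 43.8 CPM in 231:TKO. Their part in the differences of MT-ND6, MT-RNR2 and MT-TF was not tested.

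The other mRNAs of the untreated cells were not called. The 3 complex IV subunits stood at log2 changes of -0.32 (MT-CO1, adjusted p = 0.271), -0.17 (MT-CO2) and -0.14 (MT-CO3), and cytochrome b (MT-CYB) at -0.00. The remaining complex I subunits stood at -0.22 (MT-ND1), -0.07 (MT-ND2) and -0.23 (MT-ND4). With 2 libraries a group these calls were fragile. Only MT-ATP8, MT-ND3 and MT-ND6 remained called with the replicate number as a block in the fit. That fit called 904 of 19965 genes in all, against 1919 without the block. Leaving out a library leaves 1 in a group, so only effect sizes are read from such fits. The median of the 13 protein-coding genes then ranged from -0.21 to 0.09. The 2 libraries of 231:TKO lay further apart than the 2 of parental 231 (SD of log2 differences across genes 0.489 against 0.157). The 3 protein-coding genes called are all short, and nuclear genes of up to 400 bases had a median log2 change of 0.10 (20 genes) and those of over 400 and up to 1000 bases one of 0.21 (270 genes), against 0.01 for those over 4000 bases. The part of gene length in the differences was not tested.

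**Figure D3:**
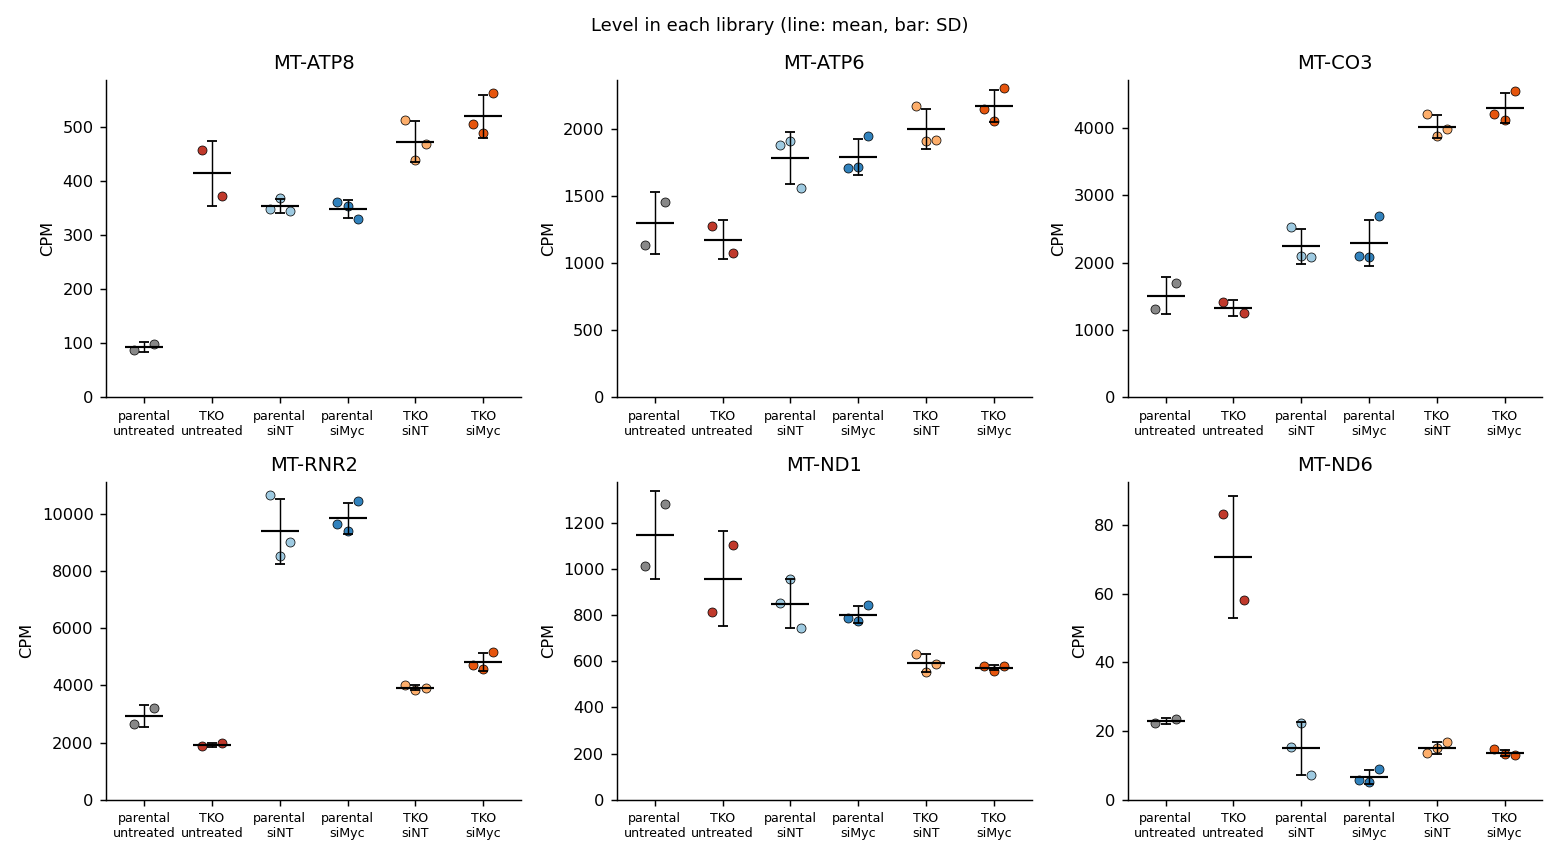
Level in CPM in each of the 16 libraries for MT-ATP8, MT-ATP6, MT-CO3, MT-RNR2, MT-ND1 and MT-ND6, 1 point per library by group. MT-ATP8 is under 100 CPM in both untreated parental libraries and at 331 CPM or above in the other 14, while MT-ATP6 overlaps between the untreated populations.

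The siMyc comparisons ask how far mitochondrial RNA depends on Myc. In 231:TKO, 4 of 33 members tested rose (MT-RNR2, MT-CO1, MT-CO2 and MT-ND5) and 0 fell. Of all genes tested 27.2% were called, 13.3% higher and 13.9% lower. The changes were small. MT-RNR2 went from 4016, 3852 and 3906 CPM with siNT to 4727, 4558 and 5153 CPM with siMyc, a log2 change of 0.28 (SE 0.05, adjusted p = 0.000106) with no overlap. MT-CO1, the catalytic subunit of complex IV, went from 4341, 3810 and 3958 CPM to 4774, 4400 and 4947 CPM, a log2 change of 0.21 (SE 0.05, adjusted p = 0.0042), also with no overlap. MT-CO2 went from 3878, 3536 and 3577 to 4153, 3901 and 4371 CPM (log2 change 0.17, SE 0.05, adjusted p = 0.0153), and the lowest siMyc library lay just above the highest siNT library.

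MT-ND5, a complex I subunit, went from 848, 732 and 782 CPM to 886, 868 and 932 CPM (log2 change 0.18, SE 0.05, adjusted p = 0.0147) and did not overlap. The other 10 protein-coding genes had log2 changes between -0.16 (MT-ND6, adjusted p = 0.19) and 0.13 (MT-ATP8, adjusted p = 0.131), and MT-RNR1 stood at -0.00. The median over the 13 protein-coding genes was 0.08 against 0.01 for all genes tested. MT-RNR2 and MT-CO1 passed whichever of the 6 libraries was left out, but in 1 fit of the 12 siRNA libraries MT-CO1 did not pass (adjusted p = 0.0982), nor did MT-CO2 or MT-ND5, which were also lost without siNT replicate 2 or 3. Among nuclear RNAs without poly(A) tails, 2 of 11 tested rose (H2BC5 by 0.44 and H4C8 by 0.37) and 3 fell, with summed levels of 41.4 to 44.5 CPM with siNT and 44.1 to 49.7 CPM with siMyc. Their part in the change of MT-RNR2 was not tested.

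In parental 231, 0 of 36 members tested were called by edgeR under siMyc, where 0.594% of all genes tested were called. Unadjusted p was under 0.05 for 3 members (MT-ND6, MT-TP and MT-TV), and DESeq2 called 1, MT-ND6 (adjusted p = 0.0253). MT-ND6 measured 15.4, 22.2 and 7.08 CPM with siNT and 5.60, 5.30 and 8.87 CPM with siMyc, so that the groups overlapped (log2 change -1.15, SE 0.37, adjusted p = 0.207 by edgeR). MT-RNR2 measured 10672, 8515 and 9000.4 CPM with siNT and 9658, 9401 and 10461 CPM with siMyc, a log2 change of 0.09 (SE 0.12). Of the other protein-coding genes, log2 changes ran from -0.14 (MT-ND2) to 0.18 (MT-ND3), and MT-RNR1 stood at -0.12. Without the 2 parental libraries that stand apart, 4673 genes in all were called instead of 141, and with them MT-ND2 (log2 change -0.23, adjusted p = 0.0336) and MT-TQ. A factor for that pair in the fit gave 3 of 36 members, where 6363 of 23728 genes in all were called. The 3 were MT-CO2 (0.14, adjusted p = 0.0232), MT-RNR1 (-0.11, adjusted p = 0.0425) and MT-TP.

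The response to siMyc was compared between the populations by an interaction term over the 12 siRNA libraries. No member of 36 tested passed in edgeR, 0 had an unadjusted p under 0.05, and 0% of all genes tested were called. DESeq2 also called 0 members, with 1 at an unadjusted p under 0.05. Without the pair of parental libraries that stands apart, 63 genes in all and 0 of 34 members were called, with 3 members at an unadjusted p under 0.05, and a factor for the pair gave 147 genes and 0 members, with 4 at an unadjusted p under 0.05. The largest difference among the 13 mRNAs was that of MT-ND6 (1.02 log2 units, SE 0.49, adjusted p = 1), and for MT-RNR2 it was 0.23 (SE 0.12, adjusted p = 1). The calls made in 231:TKO alone are thus not shown to differ from the response of parental 231.

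**Figure D4:**
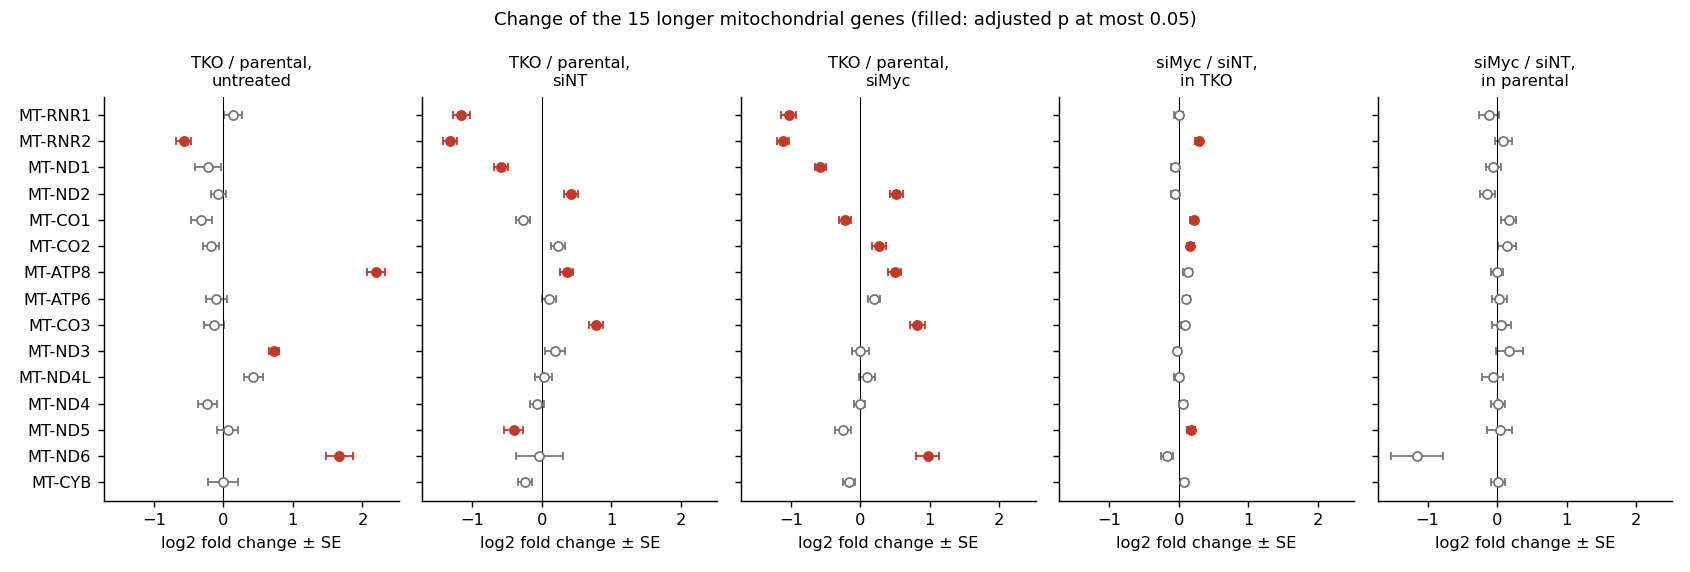
Log2 fold change with standard error for the 13 protein-coding and 2 rRNA genes in the 5 comparisons. MT-ATP8 at 2.19 and MT-ND6 at 1.66 lead the untreated comparison, and both rRNA genes lie at -1.03 or lower where 231:TKO is set against parental 231 under siRNA.

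Under siNT, 4 members were higher and 5 lower in 231:TKO than in parental 231 of 33 tested, where 36.8% of all genes tested were called. Under siMyc 6 were higher and 5 lower of 34, where 40.6% were called. Neither share stands above that of all genes, and population, batch and annotation release cannot be told apart in them. The 2 rRNAs had the largest called differences of the 15 longer genes. MT-RNR2 was 4016, 3852 and 3906 CPM in 231:TKO against 10672, 8515 and 9000.4 CPM in parental 231 with siNT, a log2 difference of -1.32 (SE 0.10, adjusted p = 2.57e-06), and -1.12 with siMyc (SE 0.09, adjusted p = 3.95e-07). MT-RNR1 was 377, 447 and 355 CPM against 987, 761 and 767 CPM with siNT, a log2 difference of -1.16 (SE 0.13, adjusted p = 3.68e-05), and -1.03 with siMyc (SE 0.11, adjusted p = 5.71e-06). Both rRNAs were clear of overlap in both settings, and among nuclear RNAs without poly(A) tails 5 of 11 tested were lower and 1 higher with siNT, and 7 of 11 lower with siMyc, with summed levels of 41.4 to 49.7 CPM in 231:TKO and 59.4 to 101 CPM in parental 231. Their part in the rRNA difference was not tested.

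The mRNAs split in both directions. MT-CO3, a complex IV subunit (MT:9207-9990), was 4199, 3873 and 3973 CPM in 231:TKO and 2531, 2099 and 2084 CPM in parental 231 with siNT, a log2 difference of 0.78 (SE 0.10, adjusted p = 0.00011), and 0.82 with siMyc (SE 0.11, adjusted p = 4.08e-05). MT-ND1, a complex I subunit (MT:3307-4262), was 632, 554 and 587 CPM against 850, 954 and 744 CPM, a log2 difference of -0.59 (SE 0.10, adjusted p = 0.000986), and -0.57 with siMyc (SE 0.08, adjusted p = 0.000114). Neither overlapped. MT-ND2 was higher in 231:TKO by 0.41 with siNT (adjusted p = 0.00792) and 0.52 with siMyc (adjusted p = 0.000565).

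MT-ATP8 was higher in 231:TKO under both siRNAs as well, at 513, 439 and 468 CPM against 349, 369 and 344 CPM with siNT (log2 difference 0.36, SE 0.09, adjusted p = 0.00838) and at 506, 489 and 564 CPM against 362, 353 and 331 CPM with siMyc (0.49, SE 0.09, adjusted p = 0.000832). MT-ND5 was lower with siNT (-0.40, adjusted p = 0.0375) and stood at -0.25 with siMyc (adjusted p = 0.11). With siMyc alone MT-CO2 (0.27, adjusted p = 0.0448) and MT-ND6 (0.97, SE 0.17, adjusted p = 0.000525) passed as higher and MT-CO1 as lower (-0.22, adjusted p = 0.0487). The calls of MT-CO1 and MT-CO2 were lost with DESeq2 and in 5 of the 6 fits with a library left out, and MT-CO1 and MT-ND6 were not called in 1 fit of the 12 siRNA libraries. With siNT these stood at 0.24 (adjusted p = 0.0891), -0.03 (adjusted p = 0.922) and -0.27 (adjusted p = 0.0583), and the difference between siNT and siMyc did not pass for any of them.

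The other mRNAs, MT-ATP6, MT-CYB, MT-ND3, MT-ND4 and MT-ND4L, did not pass under either siRNA, with log2 differences between -0.24 (MT-CYB, siNT) and 0.19 (MT-ATP6, siMyc, and MT-ND3, siNT). MT-CO3, MT-ND1, MT-RNR1 and MT-RNR2 passed with siNT whichever library was left out. The number called with siNT fell to 6 of 33 tested without 231:TKO siNT replicate 1 or 3, where 6318 of 22794 and 6246 of 22825 genes in all were called. It rose to 13 of 32 without parental siNT replicate 1, one of the pair that stands apart, where 10875 of 22568 genes in all were called. The number with siMyc rose to 16 of 34 without parental siMyc replicate 3, the other of that pair, where 11354 of 22849 genes in all were called. Neither rise took the share of members above that of all genes.

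Nuclear copies of mitochondrial DNA differed as well, some in the direction of their counterparts and some not. The 408 annotated copies held counts equal to 1.39% to 1.599% of the mitochondrial counts in the untreated libraries, 1.62% to 1.76% in the 231:TKO siRNA libraries and 0.842% to 1.04% in the parental siRNA libraries. Of the copies in the block on chromosome 1, 5 of 6 tested were higher in 231:TKO with siNT, among them MTCO3P12 (log2 difference 1.06) and MTND2P28 (0.98), the counterparts of MT-CO3 and MT-ND2, and with siMyc 5 of 7 were higher and MTND1P23, named after its value was seen because its mean stayed under 1 CPM, was lower (-0.98). MTCO1P12 had means of 125 CPM in 231:TKO against 61.3 CPM in parental 231 with siNT, and 135 against 74.8 CPM with siMyc. Its counterpart MT-CO1 stood at log2 differences of -0.27 and -0.22. MTATP6P1 had means of 292 against 191 CPM with siNT and 303 against 207 CPM with siMyc, while MT-ATP6 was not called. In the untreated cells 0 of 7 copies were called. MTCO3P12 stood at 6.51 to 9.28 CPM in the 231:TKO siRNA libraries, against 3873 to 4545 CPM for MT-CO3 in the same libraries. Exact nuclear copies covered 30.9% of the 50-base stretches of MT-CO3, 43.6% of MT-ND2, 25.6% of MT-ND1 and 16.2% of MT-RNR2, and how reads were divided between copies was not tested.

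The knockout effect was compared between settings by an interaction term, untreated minus siNT, in which treatment, batch, read layout and annotation release cannot be told apart. It passed for 5 of 35 members tested, 4 higher and 1 lower, where 14.1% of all genes tested were called (7.91% higher and 6.2% lower), a share near that of the members. MT-ATP8 differed by 1.84 log2 units (SE 0.16, adjusted p = 3.76e-06), since parental 231 moved from under 100 CPM untreated to at least 344 CPM with siNT while 231:TKO stayed between 372 and 513 CPM. MT-RNR1 differed by 1.30, with overlap when untreated and lower values in 231:TKO with siNT. MT-RNR2 differed by 0.76, being lower in 231:TKO in both settings and by more with siNT. MT-CO3 differed by -0.92, with overlap between the populations when untreated and none with siNT. In the same test nuclear RNAs without poly(A) tails had a median of 1.34, with 3 of 11 higher and 0 lower, and the copies on chromosome 1 a median of -1.04, with 3 of 7 lower. Nuclear genes of up to 400 bases had a median of 0.58 (42 genes), against -0.07 for those over 4000 bases. The part of these in the 5 differences was not tested.

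The tRNAs gave few reads. All 22 together held 226 to 1067 counts a library, and MT-TR had 0 counts in all 16 libraries, which allows up to 0.158 CPM at 3 counts in the shallowest library. MT-TL1 was the most abundant, at 26.1 and 31.8 CPM in untreated parental 231 and 17.7 and 29.6 CPM in 231:TKO, and 2.10 to 3.67 CPM under siRNA. It overlapped between the untreated populations. MT-TT (tRNA threonine) stood at 2.48 and 3.27 CPM in parental 231 and 1.27 and 1.84 CPM in 231:TKO untreated, which did not overlap but did not pass (log2 change -0.85, adjusted p = 0.162), and MT-TI (tRNA isoleucine) at 1.00 and 2.08 CPM against 1.30 and 1.77 CPM.

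Under siRNA 3 tRNAs separated 231:TKO from parental 231. With siNT 1 of 18 tested was higher and 1 lower, where 36.8% of all genes tested were called. With siMyc 1 of 19 tested was higher and 1 lower, where 40.6% of all genes tested were called. MT-TM (tRNA methionine) was higher in 231:TKO, by 1.02 log2 units with siNT (SE 0.30, adjusted p = 0.0218) and 1.28 with siMyc (SE 0.30, adjusted p = 0.00436), at 12 to 30 counts a library. MT-TC (tRNA cysteine) was lower with siNT, at 0 to 4 counts in 231:TKO and 9 to 24 in parental 231 (-2.74, SE 0.74, adjusted p = 0.0127). MT-TT was lower with siMyc, at 11 to 21 counts in 231:TKO and 45 to 69 in parental 231 (-1.26, SE 0.30, adjusted p = 0.00395). These calls rest on at most 69 reads in any library, and with siNT neither MT-TM nor MT-TC passed in every fit with 1 library left out.

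Nuclear genes that copy the mitochondrial genome and process its RNA fell under siMyc in 231:TKO, where 13.9% of all genes tested fell. In 231:TKO, 11 of 13 replication genes, 17 of 31 RNA processing genes and 5 of 8 transcription genes fell and 0 of these lists rose, with medians of -0.29, -0.25 and -0.27 against 0.01 for all genes tested. TWNK, the mitochondrial replicative helicase, fell by 1.10 on the log2 scale (SE 0.07, adjusted p = 2.74e-10). PNPT1, a polynucleotide phosphorylase of mitochondrial RNA decay, fell by 0.85 (adjusted p = 9.48e-10), and PUS1, a pseudouridine synthase, fell by 0.86 (adjusted p = 3.02e-07). LRPPRC, which stabilises mitochondrial mRNAs, fell by 0.54 (adjusted p = 3.59e-08).

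TFAM, which packages and transcribes mitochondrial DNA, fell by 0.39 (adjusted p = 8.25e-05), and the termination factor family member MTERF3 fell by 0.46 (adjusted p = 2.6e-05). Of 14 translation genes 5 fell and 1 rose (MRRF by -0.50, TSFM by -0.46 and TUFM by -0.36 among them), and of 7 regulators of mitochondrial biogenesis 4 fell and 1 rose. PPARGC1B, a coactivator of biogenesis genes, fell by 0.95 (adjusted p = 1.62e-06). In parental 231 the medians of the 5 lists were -0.24, -0.25, -0.23, -0.09 and -0.25 in the order transcription, replication, RNA processing, translation and biogenesis, and TWNK (-0.76, adjusted p = 0.0443) and PNPT1 (-0.60, adjusted p = 0.0491) passed. These counts rest on the pair of parental libraries that stands apart. Without it 4673 of 22445 genes in all were called, against 141 of 23728 with it. In that fit 4 transcription, 10 replication, 17 RNA processing, 5 translation and 4 biogenesis genes fell and 1 translation gene rose. With a factor for the pair 6363 of 23728 genes in all were called. Of the lists 6, 11, 18, 5 and 5 genes fell there in the same order and 2 translation genes rose. The interaction of siMyc with population called 0 genes of these lists, also without the pair, and 1 biogenesis regulator with a factor for it.

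**Figure D5:**
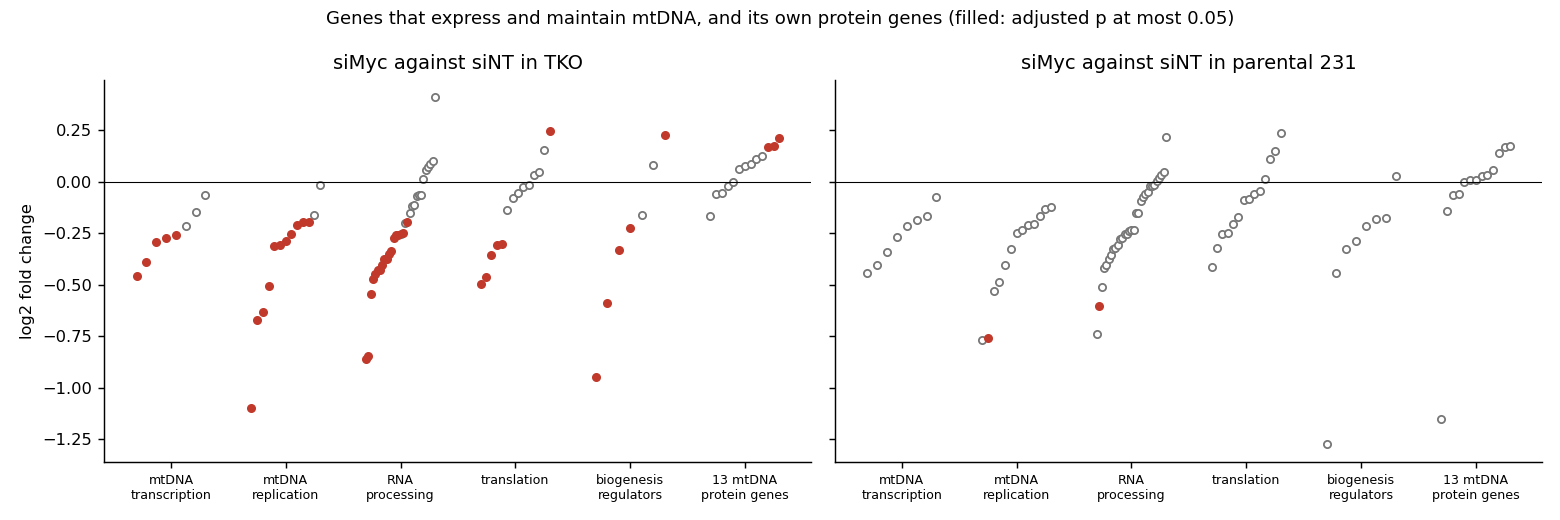
Log2 fold change of siMyc against siNT in 231:TKO and in parental 231 for 5 lists of nuclear genes that serve the mitochondrial genome and for the 13 mitochondrial protein-coding genes, 1 point per gene. List medians in 231:TKO are -0.29 to -0.06 for the nuclear lists and 0.08 for the mitochondrial genes.

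Between the untreated populations 1 of 8 transcription, 2 of 13 replication, 4 of 31 RNA processing, 1 of 14 translation and 0 of 7 biogenesis genes were called, near the 9.61% called among all genes tested. The mitochondrial RNA polymerase POLRMT fell by 0.48 in 231:TKO (SE 0.09, adjusted p = 0.0363), and SSBP1, the mitochondrial single-stranded DNA-binding protein, rose by 0.78 (SE 0.12, adjusted p = 0.0273). The 4 RNA processing genes all rose, among them the exonuclease REXO2 (0.75, adjusted p = 0.00801) and SLIRP (0.60, adjusted p = 0.0228), the partner of LRPPRC, and RPUSD4 (0.55, adjusted p = 0.0297), a pseudouridine synthase that acts on MT-RNR2. The topoisomerase TOP3A fell by 0.35 and the elongation factor GFM1 rose by 0.29. REXO2 was lower in 231:TKO under siNT (-0.31, adjusted p = 0.0469), the opposite of the untreated direction, and its interaction term was 1.07 (adjusted p = 0.00069).

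Under siNT, where 16.1% of all genes tested were higher and 20.7% lower in 231:TKO than in parental 231, 5 of 13 replication genes were higher and 1 lower, 6 of 31 RNA processing genes higher and 6 lower, 2 of 14 translation genes higher and 3 lower, 3 of 8 biogenesis regulators higher and 2 lower, and 1 of 8 transcription genes lower. TFB2M, which opens the mitochondrial promoter together with POLRMT, was lower with siNT (log2 difference -0.91, SE 0.11, adjusted p = 8.01e-05) and at -0.75 with siMyc. PPARGC1A, a coactivator of mitochondrial biogenesis, was at 24.002 to 25.8 CPM in 231:TKO and 4.46 to 6.86 CPM in parental 231 with siNT (log2 difference 1.98, SE 0.15, adjusted p = 2.52e-06). Untreated, it was at 1.63 to 3.01 CPM in 231:TKO and 1.77 to 2.27 CPM in parental 231, which overlapped, and the interaction term was -1.74 (adjusted p = 0.00487). The share of the library on mitochondrial genes in these same siNT libraries overlapped between the populations.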

How the data were processed

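Libraries were prepared from poly(A)-selected RNA with the KAPA Stranded mRNA-Seq kit. The authors aligned reads to GRCh38 with STAR and deposited raw counts per gene from featureCounts 1.6.3, reverse-stranded and assigned by largest overlap, with Ensembl 102 (untreated and 231:TKO siRNA) or 104 (parental siRNA). Here the whole table was tested with edgeR 4.0.16 (quasi-likelihood, TMM factors, R 4.3.3) on genes whose counts over a fit's libraries summed to more than 5, with Benjamini-Hochberg adjustment over all genes tested and a threshold of 0.05; log2 changes come from that fit, and CPM is the count scaled to a library total of 1e6. Shares were compared by exact permutation. DESeq2 1.42.0, other normalizations and filters, a replicate block and libraries left out were alternatives, and the fits were tested on simulated data. Named were all protein-coding and rRNA genes, tRNAs past the threshold or the 3 most abundant, and up to 3 called genes with the largest change per nuclear list, chosen in any comparison. The members and lists were chosen with earlier results of these data known. Sequences came from GENCODE v44lift37, and nuclear copies were sought as 50-base windows in GRCh37.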

Additional observations from a re-analysis of the deposited data

Results flagged for a closer look

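The difference between the knockout effect in untreated cells and that under siNT passed the interaction test for 5 of 35 mitochondrial genes tested. This was near the 14.1% called among all genes. In this difference treatment, batch, read layout and annotation release change together. It was 2.77 log2 units for MT-TF (SE 0.512, adjusted p = 0.00205), which had 6 to 63 counts in the untreated libraries and 15 to 47 under siNT. It was 1.84 for MT-ATP8 (SE 0.161, adjusted p = 3.76e-06), 1.30 for MT-RNR1 (SE 0.204, adjusted p = 0.000589) and 0.756 for MT-RNR2 (SE 0.171, adjusted p = 0.00776). MT-CO3 was the one in the other direction, at -0.917 (SE 0.182, adjusted p = 0.00335). MT-ATP8, MT-RNR1, MT-TF and MT-CO3 passed whichever of the 10 libraries was left out, and MT-RNR2 passed in all of these but the fit without untreated parental replicate 1.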

How the results depend on the processing

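The number of members called between the untreated populations moved from 5 to 3 with a replicate block and to 1 at an adjusted p of 0.01, and it ranged from 0 to 8 when 1 library was left out. These untreated fits with a library left out have 1 library in a group, and the number called among all genes swung in them as well. That range therefore says nothing about the members. For siMyc in 231:TKO the number of members called moved from 4 to 1 (MT-RNR2) in 1 fit of the 12 siRNA libraries. It moved to 2 at an adjusted p of 0.01 and to 2 to 6 with a library left out, and was 6 with the replicate block. For siMyc in parental 231 it was 0 and became 1 with DESeq2, 1 in the fit of 12 libraries, 2 without the pair of libraries that stands apart and 3 with a factor for that pair. Among all genes 1110, 1666, 4673 and 6363 were called in these fits. The fits without the pair and with a factor for it were chosen after seeing the data, as was the summing of bicistronic neighbours. The number of members called for siMyc in parental 231 is meant in the next sentence as well. It stayed at 0 with a single library left out. In 231:TKO against parental 231 it ranged from 6 to 13 with siNT and from 9 to 16 with siMyc when a library was left out. The number called among all genes ranged from 6246 to 10875 with siNT and from 7353 to 11354 with siMyc in the same fits. The median of the 13 protein-coding genes with siMyc was 0.10, ranged from 0.051 to 0.17 with a library left out and was 0.19 on library totals, and that of the knockout interaction ranged from -0.067 to 0.41. The difference in mitochondrial share under siMyc in parental 231 ranged from -0.024 to 0.204 percentage points with a library left out, turning negative without siNT replicate 3. On the 13 protein-coding genes alone the share of 231:TKO exceeded that of parental 231 by 0.213 points with siNT and 0.337 with siMyc, opposite to the share of all 37 genes. MYC between the untreated populations was -0.14 without 231:TKO replicate 1 and ranged up to 0.22 with another library left out, against 0.06 with all libraries (adjusted p = 0.802). The causes were not tested. Over all settings, 3349 of the values for single genes kept their call or lack of one, and values called in neither fit counted here whatever their direction. Of the rest, 213 lost the call, 44 gained it and 1 with a call changed direction. Same-numbered libraries did not deviate together (r across genes 0.02 untreated, -0.15 to 0.27 in 231:TKO and -0.81 to 0.63 in parental 231), so the numbers do not pair them, and the block gave 9 and 10 calls in 231:TKO against parental 231, 0 in parental 231 and 5 in the knockout interaction. Counts under about 10 reads, as in most tRNAs, limit what could be seen there.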
